A study of Homo sapiens with 18 samples.

Results

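The 48 genes described here carry signals from the Toll-like and interleukin-1 receptors to the transcription factor NF-κB, or hold those signals in check. They were chosen by symbol from the pathway with the siASAP1 and siCtrl results of these libraries already known, so the counts and changes of these members are given as a description and not as a test. The whole table held 21111 probes for 19289 gene symbols, and the 48 members had 56 probes, since 8 of them had more than 1 probe. The libraries were made with TempO-Seq, in which a pair of detector oligonucleotides anneals to a target RNA, is ligated and is counted by sequencing. BT549, Hs578T and SUM149PT, established cell lines from human triple-negative breast cancer (TNBC), were transfected with 50 nM siASAP1, a pool of siRNAs against ASAP1, or with siCtrl, and lysed after 72 h. Each line and treatment had 3 replicates, described in the study as biological, which makes 18 libraries. By the study's methods, siCtrl is a pool of siRNAs against kinases. Several members are kinases, and the part of this pool in their control levels was not tested here. The methods describe the pool as leaving the expression of individual kinases without significant change.

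Toll-like receptors sense microbial products and IL1R1 with IL1RAP senses IL-1. Apart from TLR3, whose adaptor is TICAM1, both kinds of receptor recruit the adaptor MYD88 and the IRAK kinases. The IRAK kinases engage TRAF6, the TAK1 complex and the IKK kinases, until the IκB proteins release Rel subunits such as RELA into the nucleus. A slower, noncanonical branch runs through the kinase NIK, encoded by MAP3K14, to NFKB2 and RELB, and TRAF2, TRAF3 and the cIAP proteins BIRC2 and BIRC3 keep NIK low. Many NF-κB target genes encode brakes of the same pathway, among them IκB proteins and ubiquitin-editing proteins such as TNFAIP3.

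Depth ranged from 5.76 to 9.46 M reads per library in BT549, from 5.72 to 12.5 M in Hs578T and from 4.63 to 7.74 M in SUM149PT. Levels are given as normalized counts, the reads of a probe divided by the size factor of its library. Probes differ in how well they capture their target, so levels were compared between libraries and not between genes. The lysates were bulk samples, in which fewer cells of a type and less RNA per cell cannot be told apart.

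ASAP1 itself was read first. In BT549 it stood at 1107, 966.5 and 944 normalized counts after siCtrl and at 367, 730 and 783 after siASAP1. In Hs578T the siCtrl libraries had 1641, 1414 and 2697 and the siASAP1 libraries 782, 825 and 1261. In both lines the groups did not overlap. In SUM149PT the siCtrl libraries had 1087, 189 and 1314 and the siASAP1 libraries 282, 468 and 184. The library labelled siCtrl replicate 2 thus had the ASAP1 level of silenced cells and went against its label for this gene. The SUM149PT counts, and the Log2 FC of the members described there, are therefore also given without that library. For TNIP3, IRAK2, RELB, NFKBIZ and TNFAIP2 it lay with the other SUM149PT controls. For TLR6, REL and BIRC2 it was high together with siASAP1 replicates 1 and 3, as described below.

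Markers of the lines and of other cells were read as well. VIM_18185, a mesenchymal filament, had 27346 to 36307 normalized counts in the BT549 controls and 108625 to 218740 in the Hs578T controls, against 1994 to 2965 in the SUM149PT controls. CDH2, another mesenchymal marker, went the other way between BT549 and SUM149PT, with 252.5 to 461.7 and 1463 to 2108 in their controls. EPCAM, an epithelial adhesion protein, had 20396 to 36679 in the SUM149PT controls and no more than 23.6 in the other control libraries. Some of these markers moved with silencing in SUM149PT, where VIM_18185 was at 791 to 1040 after siASAP1, FN1_27231, a fibronectin probe, went from 752.5 to 972.5 up to 3493 to 5346, and the epithelial CDH1 from 87.9 to 114 up to 210 to 263, with no overlap. In BT549, CDH2 at 555 to 691 and FN1_27231 at 8397 to 11126 after siASAP1 lay above their controls, which had 6137 to 7517 for the latter. The summed mesenchymal list of 5 genes was at 40142 to 48692 after siCtrl and 51667 to 106300 after siASAP1 in BT549. In SUM149PT it was at 5777 to 7275 and 9940 to 12013. The groups did not overlap in these lines and overlapped in Hs578T. The SUM149PT rise of the sum came from FN1, with FN1_13666 at 820 to 1388 after siCtrl and 2753 to 3116 after siASAP1. VIM_18185 fell there, and CDH2 and the TWIST1 probes overlapped. The summed epithelial list of 7 genes overlapped in every line. The part of these markers in the results was not tested. ESR1, PGR and ERBB2, the receptors by whose low protein level TNBC is defined, had 6 probes, of which 1 for ESR1 and 2 for PGR had no read in any library. ESR1_12234 had 24.3 to 54.7 in the SUM149PT controls and 26.9 to 190.5 after siASAP1, and ERBB2 14.6 to 110 and 61.8 to 138.5. The sum of the 6 was 69.2 to 150 and 165 to 280.5 there, with no overlap, and the groups overlapped in BT549 and Hs578T. The part of these receptors was not tested either. Among 7 leukocyte genes with 8 probes, CD3E had no read in any library and PTPRC had reads in 1 library, at 2.67 normalized counts. The summed leukocyte list was between 103 and 162 in Hs578T after siCtrl and between 282 and 331 after siASAP1, of which CD68 made up 80.8 to 133 and 251 to 321. In BT549 the sum was between 12.5 and 34.4 after siCtrl and between 53.3 and 104 after siASAP1. In SUM149PT it was between 44.6 and 104 after siCtrl and between 76.2 and 194 after siASAP1.

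Every member was accounted for. TLR2, TLR3, TLR4 and TRAF6 were listed at 0 in each of the 18 libraries. A count of 0 allows up to 3 reads, which is between 1.74 and 4.80 normalized counts depending on the library, for counting error only. A mean normalized count of at least 10 over the 6 libraries of a line was reached by 34 member probes of BT549, by 33 of Hs578T and by 42 of SUM149PT, by 28 probes in all 3 lines and by 11 in none. In the remainder of the text a probe below that filter in a line is called untested there.

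Silencing was compared with siCtrl in each line by the study's DEG limits, which ask for an absolute Log2 FC over 1 with an unadjusted p under 0.05, applied to limma fits. Log2 FC is the difference of the mean log2 (normalized count + 1), siASAP1 minus siCtrl, with its SE and 3 libraries in each group. In BT549, 9 of the 34 tested member probes met the limits, all higher after siASAP1, where 3.28% of all tested probes were higher by these limits and 3.69% lower. The limits were met by 17 without siASAP1 replicate 1, the BT549 library with the lowest ASAP1. Some were higher and some lower, where 9.28% of all probes were higher and 13.2% lower. In Hs578T, 5 of 33 met them, all higher, where the background was 1.34% higher and 1.44% lower, and 1 met them without siASAP1 replicate 3. In SUM149PT, 9 of 42 met them, all higher, where the background was 5.27% higher and 4.29% lower. Without the library labelled siCtrl replicate 2, 17 of 42 were higher and 1 was lower, against 14.4% and 8.94% of all probes. The higher probes were then the 9 of before with BCL3_17192, IRAK4_3407, NFKBIE, RELA_5793, REL, TAB2, TICAM1 and TLR6, and the lower one was NFKBIB. Of these 18, the 6 probes LCN2_3758, IRAK4_3407, NFKBIE, RELA_5793, TAB2 and TICAM1 passed the filter only through the silenced libraries, and with controls at or near 0 their fitted Log2 FC depend on the pseudocount. Since the members were chosen with this contrast known, nothing is read from the distance to these backgrounds.

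The lines shared parts of the lists made with all libraries. TRAF1, BIRC3, IRAK2, RELB and ICAM1 met the limits in both BT549 and SUM149PT, and NFKBIZ, TNFAIP2 and TNIP3 in both Hs578T and SUM149PT. NFKB2, NFKBIE, MAP3K14 and IL1RAP met them in BT549 alone, both SOD2 probes in Hs578T alone and LCN2_3758 in SUM149PT alone. No probe met them in all 3 lines. NFKB2 and NFKBIE in BT549 and LCN2_3758 in SUM149PT had control means of 1.66, 0.47 and 3.95 normalized counts, so they passed the filter only through the silenced libraries, where they were high, and had to differ. Apart from them, 7 members met the limits in BT549, 5 in Hs578T and 8 in SUM149PT. With Benjamini-Hochberg adjustment, 0 member probes had an adjusted p under 0.05 in a limma fit of a single line with all its libraries and no replicate block, where 9, 6 and 9 had an unadjusted p under 0.05 in BT549, Hs578T and SUM149PT. The median Log2 FC of the tested members was 0.77 for BT549, 0.41 for Hs578T and 0.91 for SUM149PT, beside -0.002, 0.01 and 0.09 over all tested probes. The member medians include 4, 2 and 6 probes that passed the filter only through the silenced libraries, and 1, 0 and 0 only through the controls.

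The separation of the libraries describes the same contrast. The 3 siASAP1 libraries lay above all 3 siCtrl libraries for 10 tested member probes of BT549, for 9 of Hs578T and for 15 of SUM149PT, and below them for 0 in each line. Of these, NFKB2 and NFKBIE in BT549, TNFAIP3 in Hs578T and NFKBIE, TNIP1 and LCN2_3758 in SUM149PT passed the filter only through the silenced libraries, which leaves 8, 8 and 12. Over all tested probes, siASAP1 lay above siCtrl without overlap for 7.35%, 6.31% and 8.87%, and below it for 6.51%, 5.78% and 8.41%. Without the library labelled SUM149PT siCtrl replicate 2, a count added after the data were seen, siASAP1 lay above siCtrl for 21 of the 42 members' probes and below it for 2, where 23.3% and 21.4% of all probes did so. Of the 21, 7 passed the filter only through the silenced libraries.

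**Figure D1:**
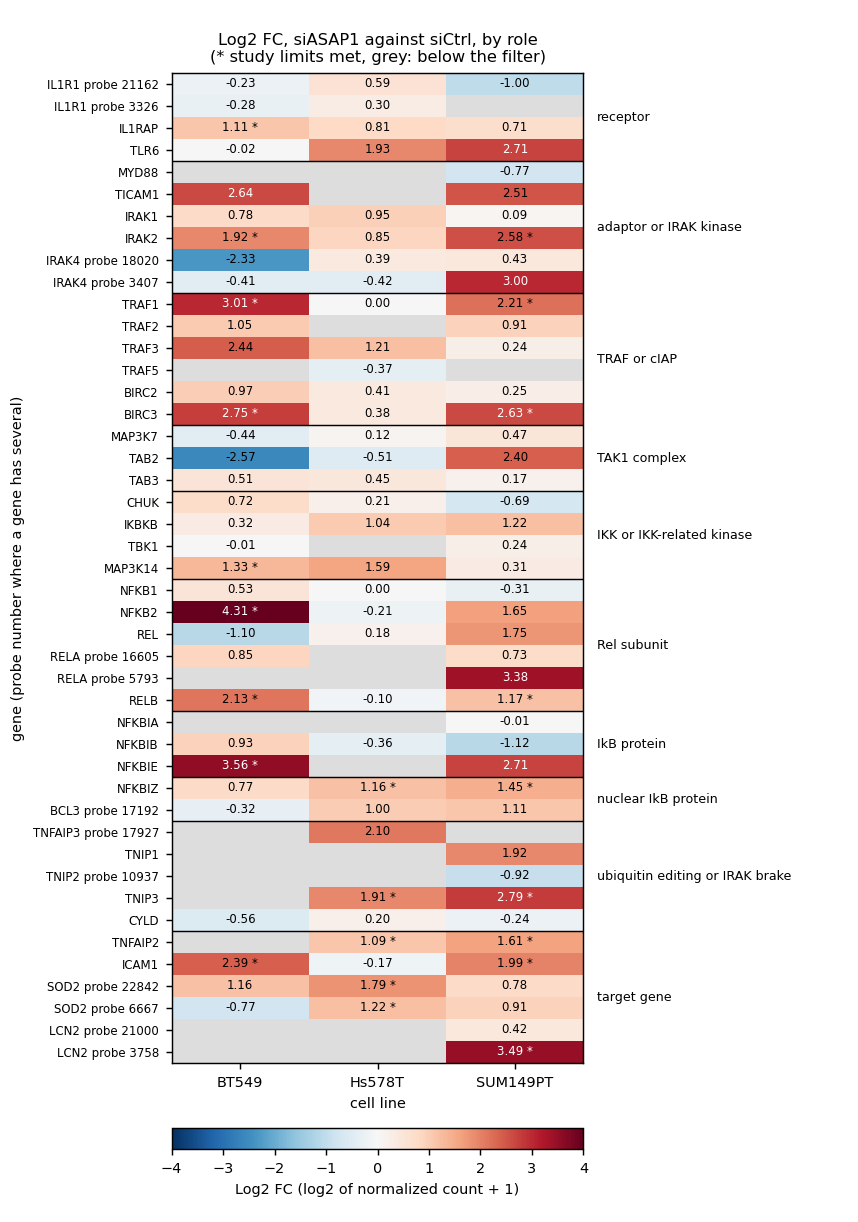
Log2 FC of siASAP1 against siCtrl (colour and printed value) for the member probes tested in at least 1 line, with cell lines as columns and genes as rows grouped by role. Stars mark the study's DEG limits, met by 9 BT549 probes, 5 Hs578T probes and 9 SUM149PT probes (all libraries used), and grey cells are untested.

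When all 18 libraries were fitted together and the cell line was a covariate, 39 probes of 35 members were tested and 6 had an adjusted p under 0.05, all higher after siASAP1. They were TNIP3 (Log2 FC 2.73 ± 0.29), NFKBIE (2.58 ± 0.58), BIRC3 (1.92 ± 0.38), IRAK2 (1.78 ± 0.28), TRAF1 (1.74 ± 0.42) and NFKBIZ (1.12 ± 0.22). NFKBIE averaged 2.75 normalized counts over the siCtrl and 20.1 over the siASAP1 libraries, so it too passed the filter only through the silenced group, and 5 were called apart from it. Over all 10475 probes, 0.678% were called higher and 1.06% lower, and the median Log2 FC was 0.02 against 0.76 for the members. The member median includes 5 probes that passed the filter only through the silenced group. Without the library labelled SUM149PT siCtrl replicate 2, TRAF1 was no longer called and the other 5 were. With the replicate numbers as a block, BIRC3, TRAF1 and NFKBIZ were not called (limma adjusted p = 0.0723, 0.12 and 0.0598), and TNIP3, NFKBIE and IRAK2 were. The interaction of line and treatment, which asks whether the change differs between lines, was called for 0 of the 39 member probes at an adjusted p under 0.05 in limma, against 0.00955% of all probes, and 6 members had an unadjusted p under 0.05 (TRAF1, BIRC3, IRAK2, RELB, NFKB2 and ICAM1). Presence in the list of 1 line and absence from another is therefore not shown to be a difference between lines.

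Among the receptors, IL1R1, the signalling receptor for IL-1, had 2 probes and neither met the limits in any line. IL1R1_21162 had 391.8, 192 and 256 normalized counts in the BT549 controls and 226, 311 and 171 after siASAP1, which overlap. In Hs578T it had 331, 257 and 172 after siCtrl and 470, 313 and 340 after siASAP1, and in SUM149PT 62.9, 16.4 and 3.20 against 19.8, 26.9 and 0. Its Log2 FC was -0.23 ± 0.44, 0.59 ± 0.34 and -1.0 ± 1.63 in the 3 lines (-0.97 in SUM149PT without the library labelled siCtrl replicate 2). The sign turned in SUM149PT without siASAP1 replicate 3 (0.53) and in BT549 without siCtrl replicate 1 (0.046). IL1RAP, the accessory chain that IL1R1 needs to signal, had 146, 277 and 253 in the BT549 controls and 321, 549 and 584 after siASAP1. The BT549 groups did not overlap, and its Log2 FC was 1.11 ± 0.43 there, 0.81 ± 0.50 in Hs578T and 0.71 ± 0.42 in SUM149PT (0.56 without the library labelled siCtrl replicate 2).

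Among the adaptors and IRAK kinases, IRAK2, which sustains signalling downstream of MYD88, met the limits in BT549 and SUM149PT. Its BT549 controls had 187, 186 and 214 normalized counts and its silenced libraries 688, 838 and 704.5, a Log2 FC of 1.92 ± 0.36. In SUM149PT the controls had 77.2, 34.6 and 25.6 and the silenced libraries 286, 246 and 222, a Log2 FC of 2.58 ± 0.56 (2.46 without the library labelled siCtrl replicate 2). In Hs578T the values were 241, 353 and 235.5 against 458, 317 and 821, which overlap, with a Log2 FC of 0.86 ± 0.39. The other genes of this role did not meet the limits in any line with all libraries. IRAK1, the kinase that IRAK4 activates, had Log2 FC of 0.78, 0.95 and 0.09, and MYD88 was tested in SUM149PT alone, at -0.77 ± 1.5. These SUM149PT values were -0.25 and -1.27 without the library labelled siCtrl replicate 2. TICAM1, the adaptor of TLR3, had 0, 2.52 and 13.3 in the BT549 controls and 18.7, 8.50 and 63.9 after siASAP1, which overlap, on 0 to 19 reads per control library and 9 to 70 per silenced library.

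The TRAF and cIAP genes included 2 members that met the limits in both BT549 and SUM149PT. TRAF1, an adaptor that binds TRAF2 and the cIAP proteins, had 69.9, 185 and 109 normalized counts in the BT549 controls and 893, 657 and 1277 after siASAP1, a Log2 FC of 3.01 ± 0.47. In SUM149PT it had 78.7, 33.7 and 94.3 against 446, 195 and 294, a Log2 FC of 2.21 ± 0.58 (1.76 without the library labelled siCtrl replicate 2). In Hs578T the values were 37.1, 38.4 and 84.7 against 23.8, 61.9 and 82.1, and the Log2 FC was 0.003 ± 0.57. TRAF1 thus separated the groups fully in BT549 and SUM149PT and overlapped in Hs578T.

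BIRC3, a ubiquitin ligase encoded next to BIRC2 in the same family, had 327, 304 and 319 normalized counts in the BT549 controls and 3474, 1706 and 1660 after siASAP1. Its Log2 FC was 2.75 ± 0.39 there. In SUM149PT it had 40.1, 136 and 79.9 against 526.5, 226 and 895, a Log2 FC of 2.63 ± 0.67 (3.04 without the library labelled siCtrl replicate 2), and in Hs578T 208, 363 and 162 against 218, 384.5 and 320, a Log2 FC of 0.38 ± 0.38. The BT549 siASAP1 replicate 1 stood above its 2 fellow libraries for BIRC3. TRAF2 and TRAF3, which bring the cIAP proteins to NIK, had Log2 FC of 1.05 and 2.44 in BT549 without meeting the limits.

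Of the kinases in the middle of the pathway, 1 met the limits. No probe of the TAK1 complex met the limits in any line with all libraries, and over the 18 libraries MAP3K7, which encodes TAK1 itself, had a Log2 FC of 0.05 ± 0.28 and TAB3 of 0.38 ± 0.19. CHUK and IKBKB, the catalytic IKK kinases, had 0.08 ± 0.35 and 0.86 ± 0.68. MAP3K14 was the only tested gene of the IKK group to meet the limits. It had 88.6, 267 and 173 in the BT549 controls and 236, 412.5 and 677 after siASAP1, which overlap, with a Log2 FC of 1.33 ± 0.54.

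Among the 5 Rel subunit genes, RELB met the limits in BT549 and SUM149PT and NFKB2 in BT549 when all libraries were used. Without the library labelled siCtrl replicate 2, RELA_5793 (Log2 FC 5.06, from 3.38 ± 1.54) and REL met them in SUM149PT. RELB had 48.7, 62.3 and 57.5 normalized counts in the BT549 controls and 261, 196 and 299 after siASAP1, a Log2 FC of 2.13 ± 0.42. In SUM149PT it had 54.4, 59.2 and 56.0 against 126, 140 and 120, a Log2 FC of 1.17 ± 0.46 (1.2 without the library labelled siCtrl replicate 2), and in Hs578T 49.8, 49.8 and 80.8 against 30.6, 61.9 and 85.3, a Log2 FC of -0.10 ± 0.49. RELB controls were within a narrow range in BT549 and SUM149PT, and every silenced library of these lines lay above them. NFKB2, the precursor partner of RELB, rested on few reads, with 4.99, 0 and 0 in the BT549 controls and 24.9, 31.2 and 55.7 after siASAP1. The fitted Log2 FC of 4.31 ± 1.17 depends on the pseudocount at such levels.

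NFKB1, the usual partner of RELA, had 140, 87.4 and 77.9 in the BT549 controls and 127, 196 and 115 after siASAP1. In Hs578T it had 187, 173 and 315 against 248, 203.5 and 203, and in SUM149PT 193, 97.5 and 176 against 116, 165 and 89.4. The groups overlapped in all 3 lines, and its Log2 FC over the 18 libraries was 0.07 ± 0.24. RELA, the main activating subunit, had a Log2 FC over the 18 libraries of 0.81 ± 0.36 for RELA_16605 and 0.76 ± 0.85 for RELA_5793. RELA_16605 had 11.2, 30.8 and 30.9 in the BT549 controls against 30.2, 49.1 and 45.6, which overlap, and 37.2, 28.2 and 22.4 in the SUM149PT controls against 54.2, 52.6 and 39.4, which do not. Its SUM149PT Log2 FC was 0.73 with all libraries and 0.72 without the library labelled siCtrl replicate 2.

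The classical IκB proteins were thinly read. NFKBIA, which encodes the IκB protein that masks RELA and is itself a target gene, was tested in SUM149PT alone, where it had 10.0, 5.47 and 7.99 normalized counts after siCtrl and 0, 29.5 and 19.7 after siASAP1. The Log2 FC of -0.007 ± 1.53 could not be told from 0 at this depth, and was -0.21 without the library labelled siCtrl replicate 2 and 1.54 without siASAP1 replicate 1, the library at 0. Below the filter, NFKBIA had 6.24, 1.26 and 4.91 in the BT549 controls against 15.1, 6.61 and 21.0 after siASAP1, which do not overlap, and 13.5, 4.08 and 8.87 against 4.53, 8.10 and 5.33 in Hs578T, which do. NFKBIE had 0, 0 and 1.40 in the BT549 controls and 4.44, 13.2 and 50.2 after siASAP1. In SUM149PT it had 8.58, 7.29 and 0 against 30.4, 48.7 and 13.1, and in Hs578T 4.22, 3.26 and 0 against 9.07, 6.36 and 5.33. Each silenced library lay above every control library of its line for NFKBIE, but the controls held few reads, so the size of its change is uncertain. In SUM149PT its Log2 FC was 2.71 with all libraries and 3.18 without the library labelled siCtrl replicate 2, which put it within the limits there. NFKBIB had a Log2 FC of -0.18 ± 0.42 over the 18 libraries.

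The nuclear IκB proteins, which work on chromatin with NF-κB dimers, were read more deeply. NFKBIZ, a coactivator of secondary response genes, had 707.5, 1420 and 1225 normalized counts in the BT549 controls and 1780, 1616 and 2110 after siASAP1. In Hs578T it had 162, 337 and 222 against 376, 415 and 868, and in SUM149PT 489, 514 and 692 against 2154, 1240 and 1325. All silenced libraries lay above all controls in each of the 3 lines, with Log2 FC of 0.77 ± 0.37, 1.16 ± 0.41 and 1.45 ± 0.39 (1.39 in SUM149PT without the library labelled siCtrl replicate 2). BCL3_17192 had Log2 FC of -0.32 ± 0.49, 1.00 ± 0.31 and 1.12 ± 0.55, and 1.41 in SUM149PT without that library, by which it met the limits.

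Of the ubiquitin-editing genes and IRAK brakes, TNIP3, which encodes a partner of TNFAIP3, met the limits in Hs578T and SUM149PT. In Hs578T it had 81.0, 103 and 89.7 normalized counts after siCtrl and 296, 272 and 502 after siASAP1, a Log2 FC of 1.91 ± 0.35. In SUM149PT it had 129, 155 and 118 against 930, 760 and 1126, a Log2 FC of 2.79 ± 0.39 (2.90 without the library labelled siCtrl replicate 2). In the fit without that library its limma adjusted p was 0.0481. It was the 1 member probe under 0.05 there, where 107 of 9953 probes were. BT549 had 0, 0 and 0.70 against 8.0, 17.9 and 12.8, below the filter. TNIP3 separated all silenced from all control libraries in each line. TNFAIP3, the best-known brake of this family, was read by TNFAIP3_17927 at 11, 12.2 and 0 in the Hs578T controls and 17.0, 20.2 and 32.0 after siASAP1, and was untested in BT549 and SUM149PT. CYLD, a deubiquitinase, had a Log2 FC of -0.20 ± 0.30 over the 18 libraries, and IRAK3 had reads in 2 libraries.

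Among the target genes, ICAM1, a leukocyte adhesion receptor, had 18.7, 13.8 and 17.5 normalized counts in the BT549 controls and 61.3, 96.3 and 128 after siASAP1, a Log2 FC of 2.39 ± 0.55. In SUM149PT it had 14.3, 44.6 and 24.0 against 58.2, 164 and 112, a Log2 FC of 1.99 ± 0.68 (2.40 without the library labelled siCtrl replicate 2). In Hs578T the values 15.2, 19.6 and 8.87 against 12.5, 5.20 and 26.7 overlap, with a Log2 FC of -0.17 ± 0.84. TNFAIP2, a TNF-induced gene, met the limits in Hs578T and SUM149PT. It had 32.1, 35.1 and 18.7 against 40.8, 78.1 and 68.2 in Hs578T, 204.5, 146 and 201 against 537, 892 and 359 in SUM149PT, and no read in any BT549 library. Its Log2 FC was 1.09 ± 0.49 in Hs578T and 1.61 ± 0.47 in SUM149PT (1.45 without the library labelled siCtrl replicate 2). SOD2, the mitochondrial superoxide dismutase, met the limits in Hs578T with both probes, at 1.79 ± 0.60 for SOD2_22842 and 1.22 ± 0.48 for SOD2_6667. In SUM149PT these probes had 0.78 and 0.91, and 0.48 and 1.03 without the library labelled siCtrl replicate 2.

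**Figure D2:**
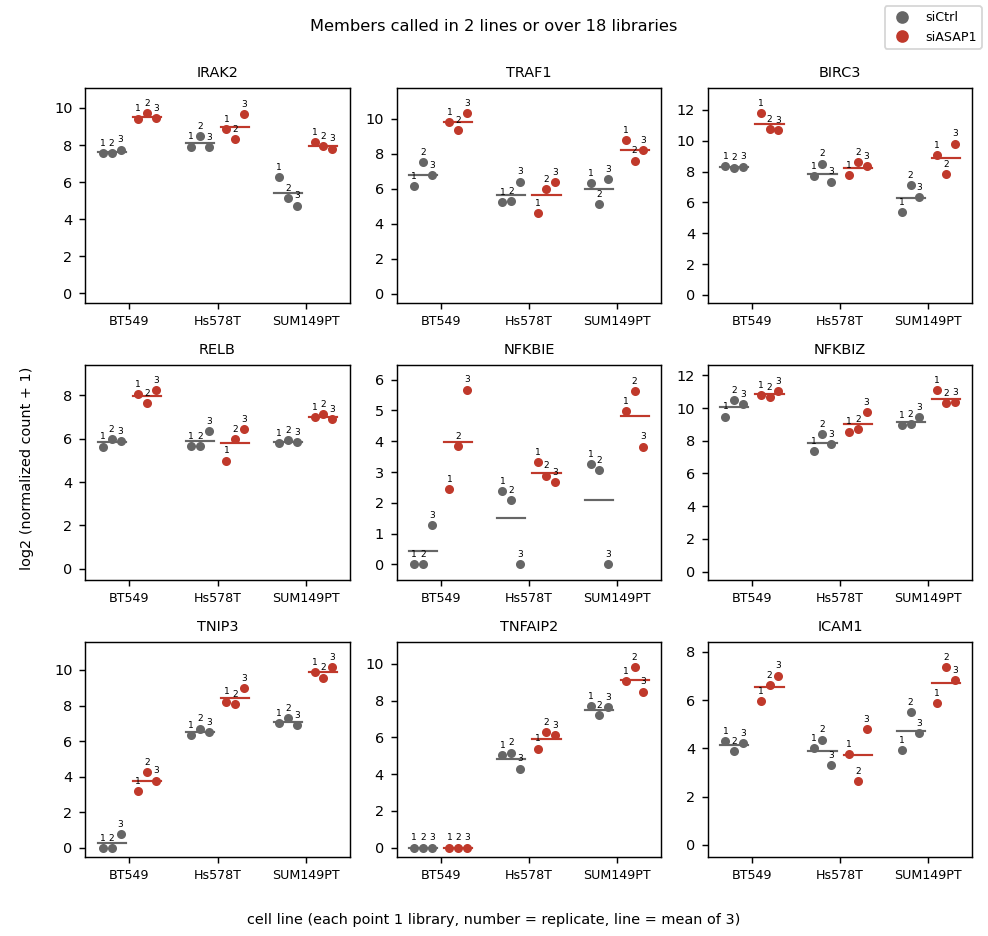
Level of 9 members in each library (y axis, log2 of normalized count + 1) by cell line (x axis), with siCtrl in grey, siASAP1 in red, replicate numbers beside the points and a line at the mean of 3. They are the members that met the DEG limits in 2 lines or were called over 18 libraries. The siASAP1 points of TNIP3, NFKBIE and NFKBIZ lie above the siCtrl points in every line, and those of TRAF1, RELB and ICAM1 overlap with them in Hs578T.

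Genes with 2 probes could be compared within the same libraries, though whether both probes read the same transcripts was not tested. In BT549, SOD2_22842 had a Log2 FC of 1.16 ± 0.61 and SOD2_6667 of -0.77 ± 0.73. In SUM149PT, LCN2_21000 had 549, 187 and 499 normalized counts after siCtrl against 403.5, 915 and 334 after siASAP1, which overlap, with a Log2 FC of 0.42 ± 0.59. LCN2_3758 had 0, 11.8 and 0 against 33.1, 33.3 and 14.5, with a Log2 FC of 3.49 ± 1.43 on at most 26 reads per library. LCN2, an iron-scavenging secreted protein, thus met the limits with its thinly read probe and not with its well-read one. LCN2_21000 had -0.07 and LCN2_3758 4.71 without the library labelled siCtrl replicate 2. IRAK4, the first kinase of the chain, had Log2 FC of -2.33 ± 1.57 and -0.41 ± 1.15 in BT549 and 0.43 ± 1.13 and 3.0 ± 1.52 in SUM149PT for IRAK4_18020 and IRAK4_3407. The latter 2 became 1.28 and 4.77 without that library, and IRAK4_3407 then met the limits.

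Several other members varied widely between replicates, and these were singled out after their values were seen. TLR6, which senses bacterial lipopeptides together with TLR2, had 32.9, 921 and 19.2 normalized counts in the SUM149PT controls and 1086, 133 and 1218 after siASAP1. REL, the c-Rel subunit, had 45.8, 869 and 46.4 against 829.5, 108 and 816 in the same libraries. For both genes the library labelled siCtrl replicate 2 and the siASAP1 replicates 1 and 3 were high and the other 3 SUM149PT libraries low. BIRC2, which encodes cIAP1, had 292, 1538 and 157 against 629.7, 252.5 and 749, with the same 3 libraries at the top. In BT549, siASAP1 replicate 1 stood apart for REL, at 425 beside 30.2 and 34.7, and for BIRC2, at 2481 beside 658 and 662. MAP3K7 had 2286 in that library beside 951 and 934, and CYLD had 610 beside 193.5 and 172.5. Their Log2 FC in SUM149PT moved with the library labelled siCtrl replicate 2, from 2.71 ± 1.47 to 4.43 without it for TLR6 and from 1.75 ± 1.27 to 3.16 for REL, and both then met the DEG limits. NFKBIB, the lower probe there, moved from -1.12 ± 0.79 to -1.85. Leaving BT549 siASAP1 replicate 1 out brought the members within the limits in BT549 from 9 higher to 13 higher and 4 lower, where 9.28% of all probes were then higher and 13.2% lower. The 3 high SUM149PT libraries and BT549 siASAP1 replicate 1 had the lowest ASAP1 counts of their lines, as given above. Whether the levels of these members go with that of ASAP1 was not tested.

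**Figure D3:**
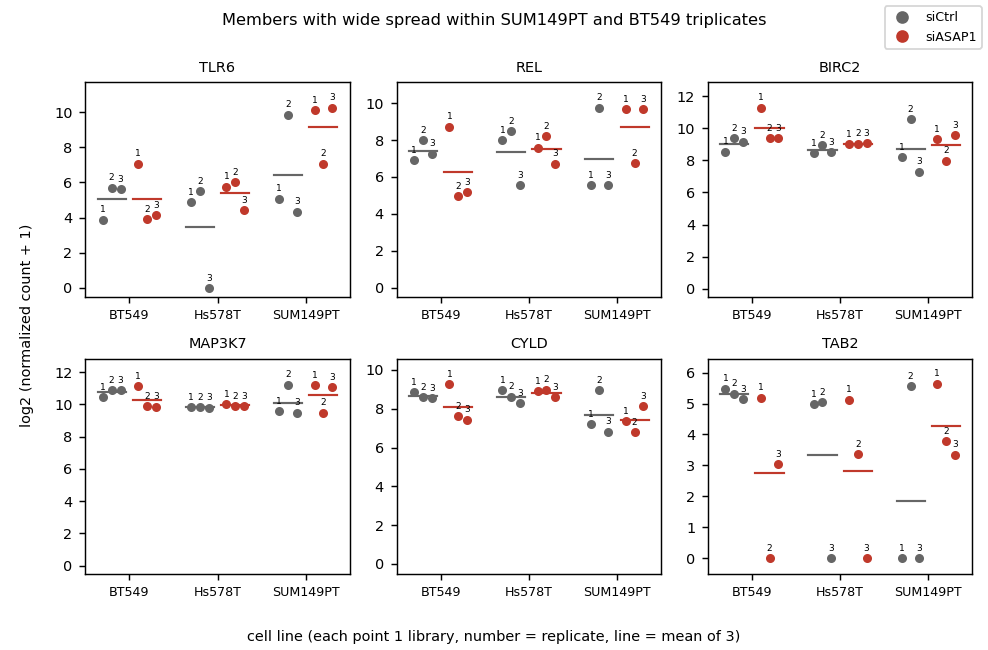
Level of TLR6, REL, BIRC2, MAP3K7, CYLD and TAB2 in each library (y axis, log2 of normalized count + 1) by cell line (x axis), with siCtrl in grey, siASAP1 in red, replicate numbers beside the points and a line at the mean of 3. In SUM149PT, TLR6 and REL are high in the library labelled siCtrl replicate 2 and in siASAP1 replicates 1 and 3, and in BT549 siASAP1 replicate 1 is the highest silenced library for all 6 genes.

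The promoters of the 4 called members with the largest Log2 FC and a promoter in the RefSeq table are printed to show where the κB consensus, the sequence that NF-κB dimers recognise, lies in them. The table for GRCh38.p14 gave the 250 bases before and 50 after each annotated start for 44 of the 48 members, and no promoter was given for IKBKB, NFKBIE, RELB and TIRAP. The κB consensus was searched on both strands, with a match on both strands at the same place counted as 1, and its letters are in capitals. Each sequence reads 5′ to 3′ on the strand of its gene. TNIP3 is shown from the 2 of its 3 starts that hold a match, on the minus strand at chr4:121227434-121227733 and chr4:121164272-121164571. BIRC3 is on the plus strand at chr11:102317234-102317533, IRAK2 on the plus strand at chr3:10164669-10164968 and TRAF1, from the first of its 3 starts, on the minus strand at chr9:120929122-120929421.
TNIP3, first start: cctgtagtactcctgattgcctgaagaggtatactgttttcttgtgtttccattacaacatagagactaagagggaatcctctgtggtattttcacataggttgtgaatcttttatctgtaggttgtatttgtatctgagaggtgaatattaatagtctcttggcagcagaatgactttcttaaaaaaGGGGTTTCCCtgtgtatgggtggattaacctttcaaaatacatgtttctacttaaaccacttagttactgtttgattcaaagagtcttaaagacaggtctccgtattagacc
TNIP3, last start: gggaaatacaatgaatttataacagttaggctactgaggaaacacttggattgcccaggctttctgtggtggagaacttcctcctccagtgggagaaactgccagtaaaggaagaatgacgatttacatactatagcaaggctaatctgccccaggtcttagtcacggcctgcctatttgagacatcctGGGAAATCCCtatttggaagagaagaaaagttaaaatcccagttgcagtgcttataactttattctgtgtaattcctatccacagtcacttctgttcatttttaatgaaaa
BIRC3: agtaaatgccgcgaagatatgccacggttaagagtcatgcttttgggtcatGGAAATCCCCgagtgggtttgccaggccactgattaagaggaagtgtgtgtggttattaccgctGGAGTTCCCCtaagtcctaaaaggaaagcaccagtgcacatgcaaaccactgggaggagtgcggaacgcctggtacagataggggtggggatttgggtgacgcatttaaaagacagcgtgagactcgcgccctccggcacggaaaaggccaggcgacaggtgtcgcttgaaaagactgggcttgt
IRAK2: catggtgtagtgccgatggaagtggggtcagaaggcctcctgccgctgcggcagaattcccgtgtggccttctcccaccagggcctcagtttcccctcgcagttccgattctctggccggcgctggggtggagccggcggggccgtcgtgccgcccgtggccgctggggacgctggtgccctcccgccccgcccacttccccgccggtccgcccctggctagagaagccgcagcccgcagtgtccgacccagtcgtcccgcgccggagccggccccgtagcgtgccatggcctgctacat
TRAF1: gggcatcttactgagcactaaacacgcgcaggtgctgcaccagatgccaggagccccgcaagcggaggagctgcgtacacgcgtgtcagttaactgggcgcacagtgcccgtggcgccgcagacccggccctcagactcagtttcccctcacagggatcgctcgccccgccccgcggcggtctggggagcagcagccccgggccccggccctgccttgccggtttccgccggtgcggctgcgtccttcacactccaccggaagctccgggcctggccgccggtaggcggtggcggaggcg

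TNIP3 held the consensus at -62 and -61 from its first and last starts, and BIRC3 held 2 matches, at -199 and -135. NFKBIZ held 1 at each of its 2 starts, at -223 and -239. IRAK2 and the 3 TRAF1 starts held none, which says only that these letters are not in these windows. Over all members, 21 of 67 promoters held the consensus (31.3%), beside 3956 of 35116 promoters in the table (11.3%). By role, 8 of 14 promoters of inhibitors, 3 of 3 of nuclear IκB proteins and 4 of 8 of Rel subunits held it, and 5 of 35 of receptors and signal relays and 1 of 7 of target genes. The probes do not tell which start a transcript used, and a match is a string of letters and not a bound site.

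The control libraries gave the level of the members in each line before silencing. In pairwise limma contrasts of the 9 siCtrl libraries, called at an adjusted p under 0.05 and an absolute difference over 1, BT549 differed from Hs578T in 5 of 34 member probes. MAP3K14, NFKBIZ and TAB3 were higher in BT549, where 6.26% of all probes were, and TNIP3 and TNFAIP2 were lower, where 7.58% were. SUM149PT was higher than BT549 for LCN2_21000, TNFAIP2 and TNIP3 (9.4% of all probes) and lower for both IL1R1 probes, IRAK2 and BIRC3 (8.76%). SUM149PT was higher than Hs578T for LCN2_21000, TNFAIP2, RELA_16605, IRAK1, TAB3 and NFKBIZ (9.64%) and lower for IL1R1_21162, IRAK2 and BIRC3 (10.5%). These shares of members were near the background in most directions, and the rule for the members also named control levels, so no test is drawn from them. Some calls also followed from the filter on the 9 control libraries. LCN2_21000 had no read in the BT549 and Hs578T controls, TNFAIP2 had none in BT549 and TNIP3 had 1 over the BT549 controls. RELA_16605 was untested in Hs578T, and IL1R1_3326 averaged 9.54 normalized counts in the SUM149PT controls. These probes passed the filter only through the lines where they were higher, so the filter favoured their calls against the low lines.

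Without the library labelled SUM149PT siCtrl replicate 2, the members called against BT549 were 4 higher and 9 lower, where 14.8% and 18.4% of all probes were called, and against Hs578T 7 higher and 5 lower, where 13.2% and 17.5% were. IRAK1 joined those higher than BT549, and IKBKB, TAB2, CYLD, MAP3K7 and BIRC2 joined those lower. Against Hs578T, TRAF2 joined the higher members, and IKBKB and CYLD the lower ones. TAB2 then averaged 0 in the SUM149PT controls, IKBKB had 4.29 and 0 there, and TRAF2 was untested in Hs578T. These probes passed the filter only through the other lines, and the differences of TAB2 and IKBKB depend on the pseudocount.

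TNIP3 followed the order SUM149PT, Hs578T, BT549 in the controls, with 334 reads over the SUM149PT controls, 313 over the Hs578T controls and 1 over the BT549 controls. The level in SUM149PT was 526-fold that in BT549 (exact 95% interval 93.8 to 20850, for counting error only) and that in Hs578T 349-fold (62.1 to 13819). The neighbours SUM149PT and Hs578T were not called apart. TNFAIP2 had the same order with all neighbours called apart, though the filter favoured its calls against BT549, where it had no read. Its SUM149PT controls were at least 71.3-fold above BT549, where it was at 0, and its Hs578T controls at least 11.1-fold above it, with 3 reads per library as the floor. LCN2_21000 was read in SUM149PT alone, at least 160-fold above BT549 and at least 156-fold above Hs578T by the same floor. IL1R1_21162 ran the other way, with BT549 and Hs578T not called apart and log2 differences of SUM149PT from them of -4.01 ± 0.85 and -3.88 ± 0.85. BIRC3 and IRAK2 were also lowest in SUM149PT, with log2 differences of -2.05 ± 0.50 and -2.23 ± 0.47 against BT549. MAP3K14 was higher in BT549 than in Hs578T by 3.56 ± 0.93.

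**Figure D4:**
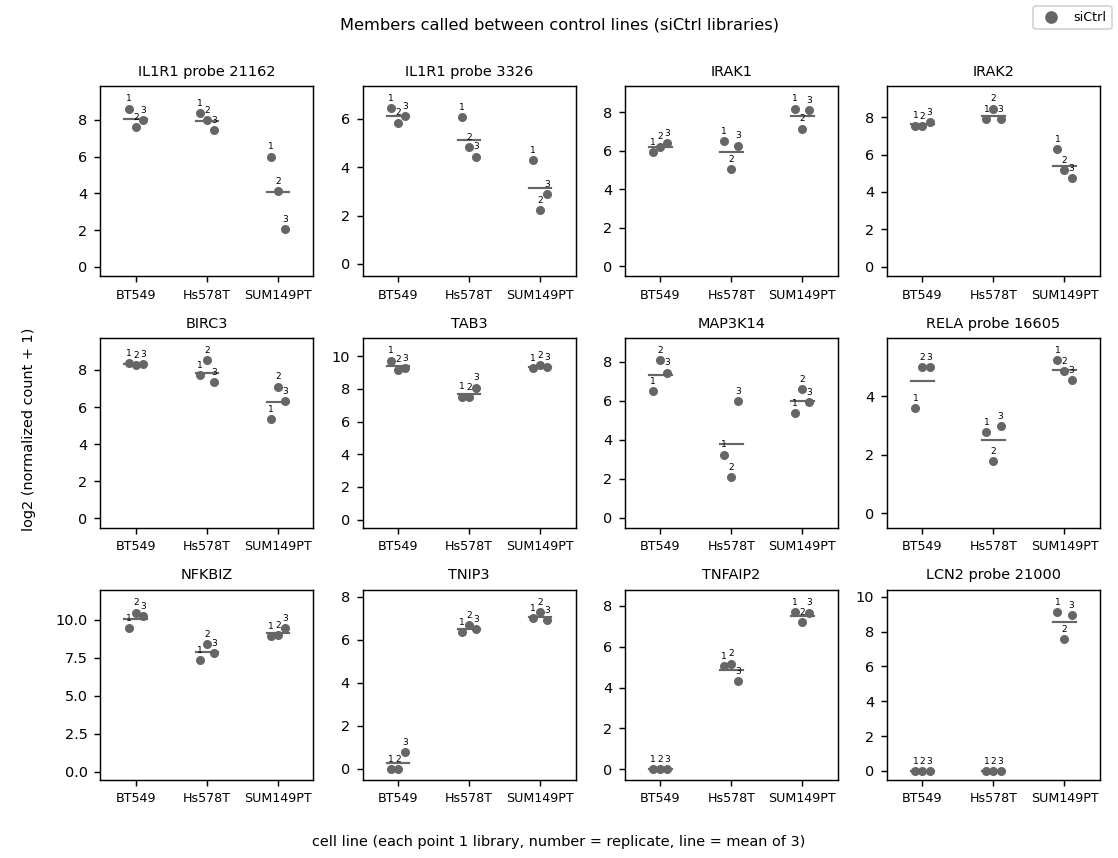
Level of the 12 member probes called between control lines in each siCtrl library (y axis, log2 of normalized count + 1) by cell line (x axis), with replicate numbers beside the points and a line at the mean of 3. LCN2 is at 0 in BT549 and Hs578T, TNFAIP2 is at 0 in BT549, and both IL1R1 probes are lowest in SUM149PT.

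Another 119 genes of the pathway, listed by function with earlier results of these data known, so that their count is not independent support, set these values in their surroundings. Over the 18 libraries, 75 of their 133 probes were tested, and 7 rose after siASAP1 and 0 fell at an adjusted p under 0.05 in limma, beside the 0.678% and 1.06% of all probes given above. The 7 were 2 of 5 tested IL-1 family ligands and 5 of 27 tested target genes, while 0 of 29 signal relays, 0 of 12 inhibitors and 0 of 2 receptors and decoys were called (7, 3 and 1 had an unadjusted p under 0.05). In single lines, the DEG limits were met by 9 probes higher and 0 lower of 62 in BT549, 3 higher and 1 lower of 67 in Hs578T and 17 higher and 1 lower of 70 in SUM149PT (29 and 2 of 70 without the library labelled siCtrl replicate 2). Over all probes the shares higher and lower were 3.28% and 3.69%, 1.34% and 1.44%, and 5.27% and 4.29%, and 14.4% and 8.94% without that library. Of the probes called, IL1B in Hs578T and SLC2A6 in SUM149PT passed the filter only through the silenced libraries, as did 6 of the 31 without siCtrl replicate 2.

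IL1B, a ligand of IL1R1, rose over the 18 libraries by a Log2 FC of 2.01 ± 0.45 (limma adjusted p = 0.0255). It averaged 8.03 normalized counts over the siCtrl libraries and 48.6 over the siASAP1 libraries, and so passed the filter only through the latter. It had 6.75, 11.4 and 6.90 normalized counts in the Hs578T controls and 46.5, 39.3 and 94.9 after siASAP1, and 20.0, 6.38 and 20.8 against 79.4, 69.2 and 102.5 in SUM149PT. BT549 had no IL1B read in its controls and 0, 0 and 5.48 after siASAP1. IL1A, the second ligand, rose by 2.11 ± 0.52 (limma adjusted p = 0.042). It had 84.4, 56.5 and 68.7 against 726, 713 and 871 in SUM149PT, and 26.2, 206 and 16.8 against 145, 164 and 220 in Hs578T, where siCtrl replicate 2 lay within the silenced range. Both ligands separated the SUM149PT groups fully. Without the library labelled SUM149PT siCtrl replicate 2, IL1A was no longer called (Log2 FC 1.97, limma adjusted p = 0.069) and IL1B was (1.83, limma adjusted p = 0.0483). With the replicate numbers as a block, neither ligand was called (smallest limma adjusted p = 0.0902).

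The 5 called target genes were C3, a complement component, the neutrophil-attracting chemokines CXCL1, CXCL2 and CXCL8, and the kinase NUAK2. C3 had 309, 347 and 351 normalized counts in the Hs578T controls against 701, 858 and 880 after siASAP1, and 1472, 1015 and 1226 against 2977, 3234 and 2865 in SUM149PT, which do not overlap. It rose by 1.57 ± 0.23 over the 18 libraries (limma adjusted p = 0.00224). CXCL8 rose by 2.56 ± 0.43 (limma adjusted p = 0.00474), CXCL1 by 2.18 ± 0.35 (limma adjusted p = 0.00337) and CXCL2 by 1.79 ± 0.29 (limma adjusted p = 0.00348). NUAK2 had 126, 98.1 and 142 in the BT549 controls and 382, 497.5 and 601 after siASAP1, and 130, 24.6 and 44.8 against 304, 276 and 315 in SUM149PT. It rose by 1.74 ± 0.32 over the 18 libraries (limma adjusted p = 0.00785). These 5 genes were also called without the library labelled SUM149PT siCtrl replicate 2. With the replicate numbers as a block, C3, CXCL1 and CXCL2 were called and CXCL8 and NUAK2 were not. For the 3 chemokines the silenced libraries lay above the controls in BT549 and SUM149PT and overlapped in Hs578T.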

How the data were processed

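The TempO-Seq libraries were processed by the authors, who used bcl2fastq, Bowtie and DESeq2 per the labels, and the genome build is not given in the sources used here. The deposited values are log2 (normalized count + 1), where the authors divided the reads of each probe by a DESeq2 size factor. Reads were recovered as whole multiples for 100% of values, within 0.05 reads, and each library held 4.63 to 12.5 M reads (median 6.63 M).

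The 48 members, the 119 other pathway genes and the markers were chosen with earlier results of these data known. A probe entered a comparison if its normalized count averaged 10 or more over the libraries compared. Tests were made in R 4.3.3 with limma 3.58.1, by lmFit and then eBayes with a trend, and Benjamini-Hochberg adjustment ran over every probe tested. Each line was fitted on its 6 libraries, the common effect and the interaction on all 18, and the control lines on the 9 siCtrl libraries. A ratio to a group with 1 to 3 reads has an exact (Clopper-Pearson) interval. The authors' Wald test was not run, and voom weights on the recovered reads are an alternative. The fits were checked on simulated data with large changes in well-read probes, which does not cover small changes or thinly read probes.

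Per-library values are given for members that met the limits in 2 lines or were called over 18 libraries, for those that differed most between control lines, and for IL1R1, NFKB1, RELA and NFKBIA. Other genes were named after their values were seen or as the called genes of each list with the smallest p. Alternatives were scaling by library totals or the upper quartile, no filter or a minimum of 50, summed probes per symbol, 0.1 as pseudocount, voom weights, a replicate block, 1 fit of all libraries, adjusted calls, and each library left out in turn. Promoters were taken from RefSeq (GRCh38.p14), and figures were drawn with matplotlib 3.10.9.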

Additional observations from a re-analysis of the deposited data

How the results depend on the processing

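Of 797 recomputed values for 52 changes of the members named by rule, 789 moved by less than the replicate spread and 8 by more. The latter included NFKBIE in BT549, whose Log2 FC became 5.88 with a pseudocount of 0.1, and TNIP3 over 18 libraries, which became 3.55. In 30 of the 797 the sign turned, for 12 changes that were not called, among them LCN2_21000 in SUM149PT, which went from 0.42 to -0.07 without siCtrl replicate 2. No called change turned. Calls by the DEG limits became 0 for BT549, 0 for Hs578T and 0 for SUM149PT when limma's adjusted p had to be under 0.05 (9, 6 and 9 at an unadjusted p under 0.05). With a minimum mean normalized count of 50, the Hs578T count was 3 of 19. All other alternatives of scaling, filter, probe summing and weights, and the fit of all libraries together, kept the counts within 1.5 times. The replicate block and leaving single libraries out moved some counts further, as given below.

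With each library left out in turn, the members within the limits numbered 6 to 17 in BT549 (17 without siASAP1 replicate 1), 1 to 7 in Hs578T (1 without siASAP1 replicate 3) and 6 to 18 in SUM149PT (18 without siCtrl replicate 2). Members called over 18 libraries numbered 4 to 8, other pathway genes 5 to 9 and interaction calls 0 to 0. Between control lines the range was 4 to 6 for BT549 against Hs578T, 5 to 13 for SUM149PT against BT549 and 5 to 12 for SUM149PT against Hs578T, with both upper values again without SUM149PT siCtrl replicate 2. Member probes whose SUM149PT groups did not overlap went from 15 to 23 without it, an alternative added after seeing the data. The causes were not tested.

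Scaling by library totals moved the median Log2 FC of all probes to 0.12 in Hs578T, 0.30 in SUM149PT and 0.15 over 18 libraries, and with it the split of all calls. Higher calls became 196 of 279 in Hs578T (127 of 264 as reported), 761 of 1028 in SUM149PT (531 of 963) and 122 of 202 over 18 libraries (71 of 182). The members called were still higher in each, at 6, 12 and 7. In BT549, 1 member was called lower with scaling by the upper quartile (9 higher) and without the filter (10 higher).

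The replicate numbers shared by siASAP1 and siCtrl did not pair the libraries in every line. Deviations of same-numbered libraries from their group means correlated at -0.18, -0.35 and 0.11 in BT549, 0.099, 0.34 and 0.35 in Hs578T and -0.32, -0.65 and -0.34 in SUM149PT. In Hs578T every siASAP1 library correlated best with its own number, a hint from the data and not the design. With the replicate block, 3 members (IRAK2, TNIP3 and NFKBIE) and 3 other pathway genes (C3, CXCL1 and CXCL2) were called over 18 libraries, among 34 of all probes (182 without it). In single lines the block gave 8 members higher and 1 lower in BT549 and 7 higher in each of the others, among 591, 435 and 351 of all probes (674, 264 and 963 without it). TNIP3 in Hs578T then had a limma adjusted p of 0.0213, the 1 member probe called at 0.05 in Hs578T by this fit.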
